A study of Mus musculus with 24 samples.

Results

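Bulk RNA sequencing of ceramic constructs was examined for 10 genes of osteoclast and giant cell formation and of the RANKL/OPG balance, chosen by gene symbol among the 51138 genes of the count table. They are Tnfsf11 (RANKL), Tnfrsf11b (OPG), Tnfrsf11a (RANK), Nfatc1, Dcstamp, Ocstamp, Atp6v0d2, Acp5, Ctsk and Calcr. All 10 were among the 30564 genes with at least 10 counts in total. Constructs were 40 mg of biphasic calcium phosphate (BCP) granules, implanted under the skin of male and female Foxp3-DTR/eGFP mice aged 8 to 9 weeks and retrieved at week 2, and 24 libraries fell into 6 groups of 4. The BCP group carried ceramic without cells. BCP+MSC carried 800000 mesenchymal stromal cells (MSC) expanded from the bone marrow of Foxp3 eGFP or wild type C57BL/6J donors. In BCP+MSC+RvE1 the MSC had been primed with 10 nM resolvin E1, a lipid mediator that promotes the resolution of inflammation, and in BCP+MSC+Treg they had been cultured with activated regulatory T cells (Treg). For (dep)BCP+MSC the recipients of BCP+MSC constructs received diphtheria toxin at 50 µg/kg, which kills cells that carry the toxin receptor under the Foxp3 promoter. Recipients of (dep)BCP+MSC+RvE1inj received the toxin and local injections of 1 µM RvE1. Each mouse held 2 constructs of one type, and the 4 libraries of a group came from different animals. Each library is a whole construct with seeded and host cells, so fewer cells of a type and less RNA per cell cannot be told apart.

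Osteoclasts are multinucleated cells that form when precursors of the macrophage lineage fuse. RANKL on stromal, osteogenic and T cells binds RANK on the precursor and, through NFATc1, switches on genes for fusion and for bone resorption, while OPG is a soluble decoy that binds RANKL. Macrophages on implanted ceramic also fuse into foreign body giant cells, which use several of the same fusion genes and for which interleukin 4 and interleukin 13 are known inducers.

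Few of the 10 genes differed between groups, and the share past the unadjusted threshold was near that of all genes. Among the fusion genes, Dcstamp, a membrane protein needed for the fusion of osteoclast precursors and giant cells, passed that threshold in both groups given diphtheria toxin (edgeR adjusted p 0.0713 and 0.183), and all 8 toxin constructs lay under all 16 constructs without toxin, while Ocstamp and Atp6v0d2 did not pass. The resorption genes Ctsk and Acp5 passed the test in no comparison, and Calcr was close to the detection floor. Tnfsf11 passed the unadjusted threshold as lower in BCP+MSC+RvE1 and BCP+MSC+Treg than in BCP, a difference that rested on 1 BCP library. Unprimed BCP+MSC was also lower than BCP (log2 fold change -1.11) and narrowly did not pass (edgeR p 0.0532). Neither primed group passed against BCP+MSC. The RANKL/OPG ratio passed the test in no comparison.

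Total counts ran from 8482701 to 144417743 per library, and 3 counts, taken as the floor, corresponded to 0.299 CPM (counts per 1000000 counts of the library, scaled by TMM factors) in the shallowest and 0.0223 CPM in the deepest. There were 7 libraries under 20000000 counts, BCP replicates 1 and 4 among them. Replicates 1 and 2 of (dep)BCP+MSC and replicate 3 of (dep)BCP+MSC+RvE1inj stood apart, with a highest correlation with any other library (log2 CPM) of 0.928 to 0.929, against 0.953 to 0.986 in the other 21, and results of the toxin groups are also given without these 3. Markers of the macrophage list were abundant in every group, with a summed level of 10300 to 17000 CPM without toxin and 7570 to 14700 CPM with toxin, and none of the 15 was at 0 throughout a group. Skeletal muscle markers summed to between 363 and 41900 CPM. Without and with toxin, the sums were 11.6 to 142 and 22.0 to 526 CPM for skin and hair, 325 to 539 and 228 to 598 CPM for endothelium, 35.6 to 78.0 and 22.8 to 97.5 CPM for B cells, and 210.0 to 617 and 293 to 691 CPM for muscle satellite cells. Foxp3, which marks the cells that the toxin targets, had 0.356 to 2.14 CPM in the 16 constructs without toxin (median 0.895) and 0.298 to 1.69 CPM in the 8 with toxin (median 0.823), and the ranges overlapped. These are levels in whole constructs. The authors checked depletion by flow cytometry in lymph nodes and spleen and report fewer Treg there. The groups are named as labelled. Xist exceeded the Y-linked genes in 1 of 4 BCP, 3 of 4 BCP+MSC, 0 of 4 BCP+MSC+RvE1, 1 of 4 BCP+MSC+Treg, 2 of 4 (dep)BCP+MSC and 0 of 4 (dep)BCP+MSC+RvE1inj libraries, so the sexes were unevenly spread. Libraries of (dep)BCP+MSC are named replicate 1, replicate 2, column 4 and column 5, since the last 2 could not be tied to a replicate label.

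Levels were compared between genes per kilobase of exon. Ctsk, the main collagen-degrading protease of osteoclasts, had the highest median at 640 CPM per kb, and exceeded Acp5 in 24 of 24 constructs. Acp5 (tartrate-resistant acid phosphatase) had a median of 133 CPM per kb and Atp6v0d2, a subunit of the vacuolar proton pump that also takes part in fusion, 122 CPM per kb, and Acp5 was the higher of the pair in 18 of 24. Dcstamp followed at 11.0 CPM per kb, then Nfatc1 at 5.41 and Tnfrsf11a at 4.64 CPM per kb. Ocstamp had 2.70, Tnfrsf11b 2.10 and Tnfsf11 1.40 CPM per kb, and the ranges of these genes overlapped. Calcr, the calcitonin receptor of mature osteoclasts, had 0.0344 CPM per kb. Acp5, Atp6v0d2 and Ctsk stood at the 98.3rd, 98.6th and 99.7th percentile of the mean CPM of all tested genes, while the ligand stood at the 60.9th.

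**Figure D1:**
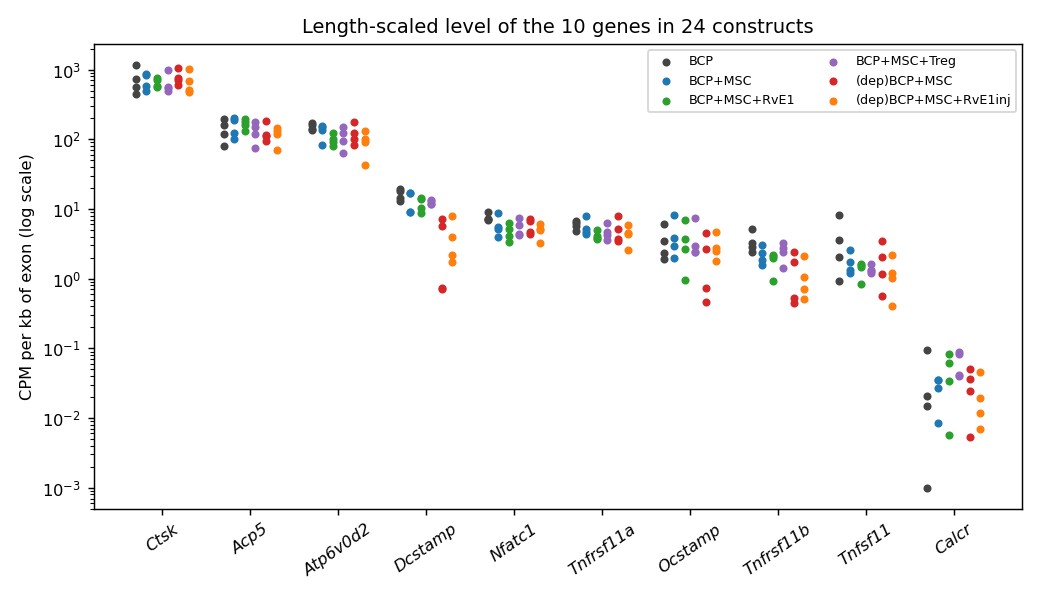
Level of the 10 genes in CPM per kb of exon on a log axis, ordered by median, with 1 point per construct coloured by group (4 constructs each). Ctsk lies between 452 and 1160 CPM per kb in all 24 constructs, Dcstamp spreads downwards in the toxin groups, and Calcr lies at or under 0.0934 CPM per kb, with the 1 construct without counts drawn at the lowest mark.

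Calls came from edgeR's quasi-likelihood test and needed an absolute log2 fold change above 1 together with p under 0.05, either unadjusted or adjusted by the Benjamini-Hochberg method. Comparisons with BCP, or with BCP+MSC, share those 4 libraries. Against BCP, 0 of 10 genes passed the unadjusted threshold in BCP+MSC, where 4.32% of all tested genes did, 1 of 10 in BCP+MSC+RvE1 (8.54% of all genes) and 1 of 10 in BCP+MSC+Treg (5.85%). Against BCP+MSC, 0 of 10 passed in BCP+MSC+RvE1 (2.5%), 0 of 10 in BCP+MSC+Treg (2.56%), 1 of 10 in (dep)BCP+MSC (13.2%) and 1 of 10 in (dep)BCP+MSC+RvE1inj (9.45%). None of 10 passed in BCP+MSC+Treg against BCP+MSC+RvE1 (2.22%) or in (dep)BCP+MSC+RvE1inj against (dep)BCP+MSC (5.13%). A share of 1 in 10 genes is near these backgrounds. By the adjusted threshold edgeR called 0 of the 10 genes in each of the 9 comparisons, against 3.14% of all genes in (dep)BCP+MSC against BCP+MSC, 0.661% in (dep)BCP+MSC+RvE1inj against BCP+MSC and 0% in the other 7. Over the 90 tests an unadjusted p under 0.05 was reached in 6 by edgeR and in 9 by DESeq2, and DESeq2 called 2 by the adjusted threshold, both Dcstamp in the toxin groups. Of all 30564 genes, DESeq2 called 1845 by that threshold in (dep)BCP+MSC against BCP+MSC and 852 in (dep)BCP+MSC+RvE1inj against BCP+MSC. An edgeR p under 0.05 alone was reached by 725 to 6208 of all genes, depending on the comparison.

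**Figure D2:**
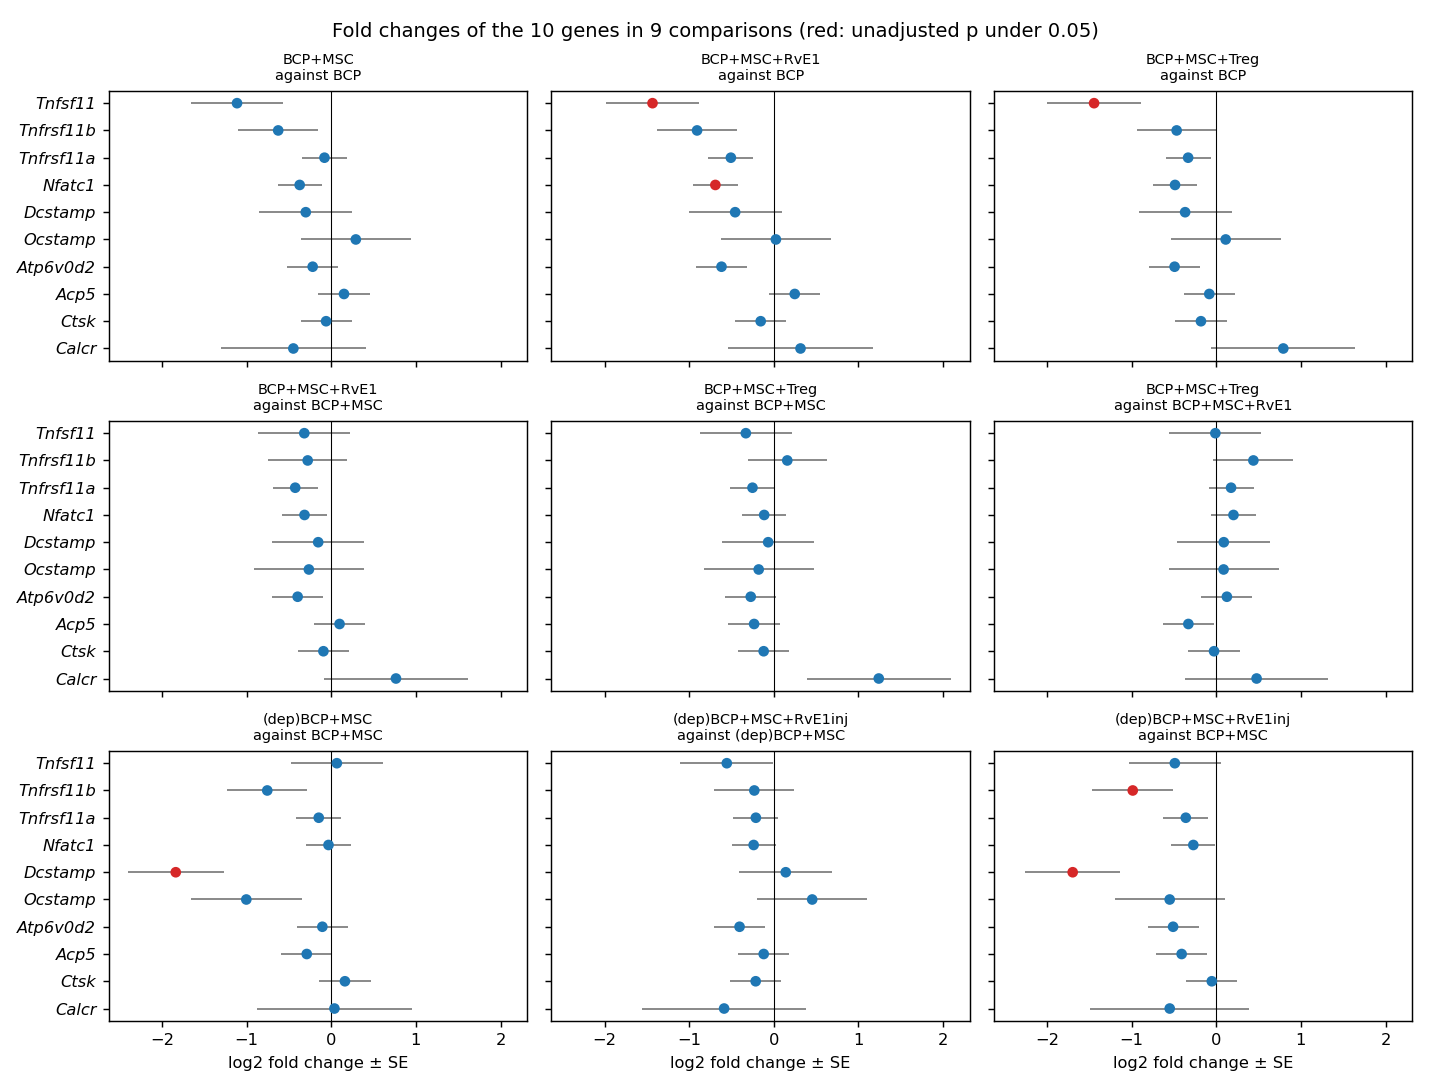
Log2 fold change of each of the 10 genes in the 9 comparisons, from the edgeR fit over all 24 libraries, with bars of 1 standard error and red points where the unadjusted p was under 0.05. Red points occur for Tnfsf11 and Nfatc1 against BCP, and for Dcstamp and Tnfrsf11b against BCP+MSC in the toxin groups, and all lie at negative values.

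Tnfsf11 (ENSMUSG00000022015.8) encodes RANKL and lies on the minus strand of chromosome 14, GRCm38 positions 78277445 to 78308043. The 4 BCP constructs had 18.6, 2.06, 4.59 and 8.06 CPM. The BCP+MSC constructs had 3.87, 5.71, 2.98 and 2.73 CPM, the BCP+MSC+RvE1 constructs 3.46, 1.87, 3.57 and 3.30 CPM, and the BCP+MSC+Treg constructs 2.86, 3.66, 2.68 and 2.96 CPM. BCP thus held the highest values, in replicates 1 and 4, and also one of the lowest, and it overlapped every other group. Among toxin constructs, replicates 1 and 2 of (dep)BCP+MSC had 7.78 and 1.25 CPM, its columns 4 and 5 had 2.61 and 4.62 CPM, and (dep)BCP+MSC+RvE1inj had 4.91, 2.66, 0.895 and 2.25 CPM. The spread was thus narrowest in BCP+MSC+Treg (3.04 ± 0.429 CPM, SD, n = 4) and widest in BCP (8.33 ± 7.28 CPM, SD, n = 4).

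Against BCP, Tnfsf11 had a log2 fold change of -1.44 (SE 0.56) in BCP+MSC+Treg, with an edgeR p of 0.0154 and an adjusted p of 0.614. In BCP+MSC+RvE1 it was -1.43 (SE 0.55), with an edgeR p of 0.0159 and an adjusted p of 0.300. In BCP+MSC, where it had the smallest p of the 10 genes, it was -1.11 (SE 0.55), with an edgeR p of 0.0532 and an adjusted p of 0.888. The exact permutation test of log2 CPM (two-sided) gave p = 0.229, 0.200 and 0.371 in the same order, with mean differences of -1.02, -1.05 and -0.74. Without BCP replicate 1 the log2 fold changes were -0.67, -0.64 and -0.33, with edgeR p of 0.215, 0.234 and 0.532 in the same order. Without the libraries under 20000000 counts, which include both of the high BCP libraries, they were -0.13, 0.04 and 0.19, so the values of the deeper libraries lay near 0. With the muscle marker level as a covariate the edgeR p were 0.0576, 0.115 and 0.0484, and with sex as a covariate 0.0311, 0.0622 and 0.0215.

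The promoter of Tnfsf11 is shown because this gene is the only ligand in the set and passed the unadjusted threshold against BCP. The sequence is the RefSeq window of 250 bases before the start site, at chr14:78308044-78308293 on the minus strand of GRCm38.p6, printed 5′ to 3′, and has a GC content of 60.4%. Capitals mark matches, on either strand, to GGAAA (the core that NFAT factors bind) and to TATAAA (the TATA box).
Tnfsf11: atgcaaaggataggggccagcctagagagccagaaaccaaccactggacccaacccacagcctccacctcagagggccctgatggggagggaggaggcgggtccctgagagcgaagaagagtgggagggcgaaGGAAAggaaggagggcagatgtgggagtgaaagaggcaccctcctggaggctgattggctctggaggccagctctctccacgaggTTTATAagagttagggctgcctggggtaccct
It holds 1 GGAAA, 117 bases before the start site, and 1 TATAAA on the other strand, 32 bases before it. GGAAA occurs in 55.6% and TATAAA in 12.4% of 32851 RefSeq promoter windows of the same length, and a match is a description of the letters only.

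Tnfrsf11b (ENSMUSG00000063727.3), on the minus strand of chromosome 15 at 54250619 to 54278484, encodes OPG. BCP constructs had 8.11, 9.01, 6.75 and 14.5 CPM. BCP+MSC constructs had 5.21, 8.61, 4.45 and 6.47 CPM, BCP+MSC+RvE1 constructs 2.60, 5.66, 6.26 and 5.90 CPM, and BCP+MSC+Treg constructs 4.03, 9.10, 7.69 and 6.82 CPM. All 4 BCP constructs were above all 4 BCP+MSC+RvE1 constructs. The share of all genes that separate these groups was not counted, while 8.54% passed the unadjusted threshold between them. With toxin, the values were 1.5 and 1.25 CPM in (dep)BCP+MSC replicates 1 and 2, and 4.94 and 6.76 CPM in its columns 4 and 5. Constructs of (dep)BCP+MSC+RvE1inj had 5.91, 1.99, 1.42 and 3.02 CPM. Thus 4 of 8 toxin constructs lay below all 16 others, whose lowest value was 2.60 CPM (share of all genes not counted). Among these 4 were all 3 libraries that stood apart over all genes, at 1.5, 1.25 and 1.42 CPM, and the fourth had 1.99 CPM.

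Against BCP+MSC, Tnfrsf11b in (dep)BCP+MSC+RvE1inj had a log2 fold change of -0.99 (SE 0.48), with an edgeR p of 0.0487 and an adjusted p of 0.361. It was -0.76 (SE 0.47) in (dep)BCP+MSC with an edgeR p of 0.123. Against BCP, BCP+MSC+RvE1 had -0.91 (SE 0.47) with an edgeR p of 0.0675, while the exact permutation test of log2 CPM gave p = 0.0286 (two-sided), the smallest that 4 against 4 allows. With sex as a covariate this difference passed the unadjusted threshold, at -1.16 (SE 0.44), with an edgeR p of 0.0143 and an adjusted p of 0.269. The 0.0487 passed 0.05 by a small margin and was 0.310 without the libraries under 20000000 counts and 0.0699 without the 3 libraries that stood apart. Without those 3, the log2 fold change of (dep)BCP+MSC was -0.08 (edgeR p 0.855).

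The balance was followed as the log2 ratio of Tnfsf11 to Tnfrsf11b counts within each library, with 0.5 added to each, in which library scaling cancels. The group means were -0.58 ± 1.37 in BCP, -0.71 ± 0.36 in BCP+MSC, -0.71 ± 0.83 in BCP+MSC+RvE1, -1.13 ± 0.45 in BCP+MSC+Treg, 0.22 ± 1.46 in (dep)BCP+MSC and -0.23 ± 0.46 in (dep)BCP+MSC+RvE1inj (SD, n = 4 each). Ligand exceeded decoy in 1 of 4 constructs of BCP, BCP+MSC+RvE1 and each toxin group, and in 0 of 4 of BCP+MSC and BCP+MSC+Treg. The largest ratio, 5.06, was in (dep)BCP+MSC replicate 1, from 78 ligand and 15 decoy counts, and the smallest, 0.23, was in BCP replicate 2, from 113 and 493 counts.

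None of the 9 comparisons of the ratio passed a two-sided exact permutation test. The smallest p was 0.171 (adjusted over the 9 comparisons, 0.771), for (dep)BCP+MSC+RvE1inj against BCP+MSC, with a difference of 0.48 on the log2 scale. For (dep)BCP+MSC against BCP+MSC the difference was 0.93 with an exact p of 0.229, and ran from 0.221 to 1.31 when 1 construct was left out (exact p 0.0571 to 0.571), while for BCP+MSC+Treg against BCP+MSC it was -0.42 with an exact p of 0.257. The other 6 comparisons had exact p of 0.429 to 1.00. The values of (dep)BCP+MSC replicate 1 and BCP replicate 1, the 2 highest at 2.34 and 1.20 on the log2 scale, come from libraries under 20000000 counts.

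**Figure D3:**
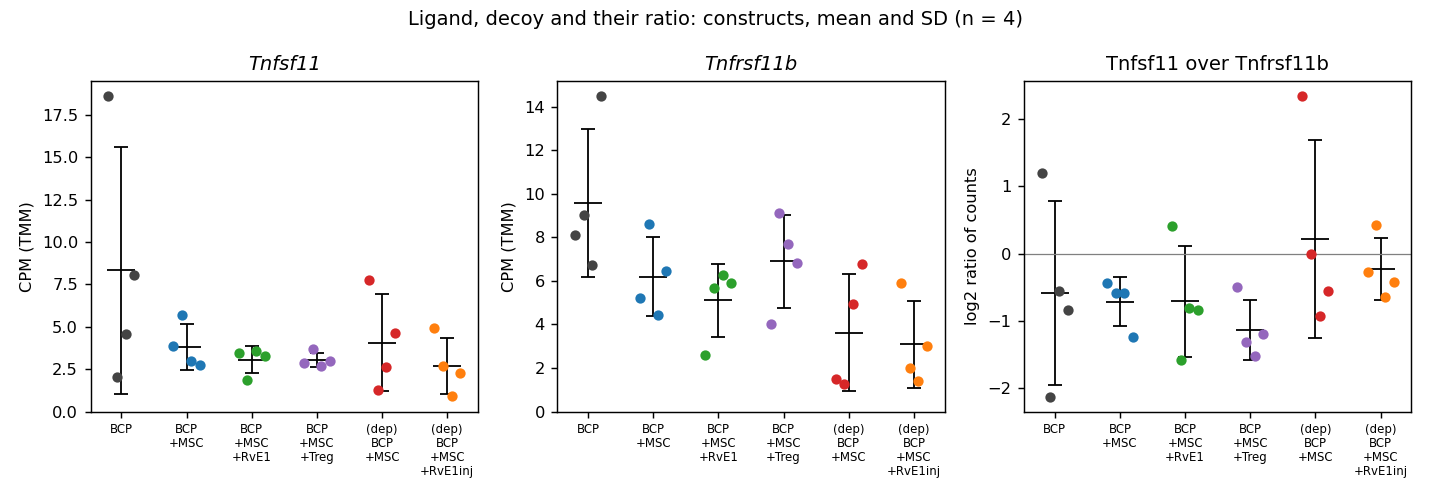
Tnfsf11 (left) and Tnfrsf11b (middle) in CPM, and the log2 ratio of their counts (right), by group, with 1 point per construct, a dash at the mean and bars of 1 SD (n = 4). The ratio overlaps between all groups, with group means from -1.13 (BCP+MSC+Treg) to 0.22 ((dep)BCP+MSC).

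Tnfrsf11a (ENSMUSG00000026321.7), on the plus strand of chromosome 1 at 105780718 to 105847981, encodes the receptor RANK. Its level was 35.2 ± 4.72 CPM in BCP, 33.3 ± 10.1 in BCP+MSC, 24.8 ± 3.58 in BCP+MSC+RvE1, 28.0 ± 7.12 in BCP+MSC+Treg, 30.0 ± 12.0 in (dep)BCP+MSC and 25.9 ± 8.12 CPM in (dep)BCP+MSC+RvE1inj (SD, n = 4). It had the smallest p of the 10 genes in BCP+MSC+RvE1 against BCP+MSC, with a log2 fold change of -0.43 (SE 0.27) and an edgeR p of 0.121 (adjusted p 0.924), which did not pass. No comparison of the receptor passed 0.05.

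Nfatc1 (ENSMUSG00000033016.15), on the minus strand of chromosome 18 at 80606205 to 80713071, encodes the transcription factor that drives osteoclast differentiation. BCP constructs had 51.6, 53.3, 54.2 and 68.2 CPM, and BCP+MSC+RvE1 constructs had 38.7, 24.6, 47.0 and 30.4 CPM. The groups did not overlap (share of all genes not counted), and the log2 fold change was -0.69 (SE 0.26) with an edgeR p of 0.0144 and an adjusted p of 0.300, under the fold limit of 1. The mean was 43.8 ± 15.7 CPM in BCP+MSC, 40.6 ± 11.6 in BCP+MSC+Treg, 42.9 ± 10.8 in (dep)BCP+MSC and 36.3 ± 8.89 CPM in (dep)BCP+MSC+RvE1inj (SD, n = 4), all between the means of BCP (56.8 ± 7.67 CPM) and BCP+MSC+RvE1 (35.2 ± 9.78 CPM). With the muscle marker level as a covariate the edgeR p was 0.0688. The muscle sums were 5120 to 21700 CPM in BCP and 21600 to 41900 CPM in BCP+MSC+RvE1, and their part in the difference was not tested further. Across the 24 constructs Nfatc1 and Tnfrsf11a had a Pearson correlation of 0.84 in log2 CPM, and 0.84 over the 16 without toxin.

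Dcstamp (ENSMUSG00000022303.8) encodes dendritic cell-specific transmembrane protein, and lies on the plus strand of chromosome 15 at 39745932 to 39760934. BCP constructs had 25.9, 36.0, 28.4 and 38.3 CPM, and BCP+MSC constructs 34.0, 18.3, 18.3 and 33.8 CPM. BCP+MSC+RvE1 constructs had 17.3, 28.5, 27.5 and 20.5 CPM, and BCP+MSC+Treg constructs 23.4, 23.3, 26.4 and 26.6 CPM. These 4 groups overlapped. Replicates 1 and 2 of (dep)BCP+MSC had 1.40 and 1.45 CPM, while its columns 4 and 5 had 11.3 and 14.5 CPM. Constructs of (dep)BCP+MSC+RvE1inj had 16.0, 7.97, 4.33 and 3.44 CPM. The 8 toxin constructs had a median of 6.15 CPM and a maximum of 16.0, and the 16 others a median of 26.5 CPM and a minimum of 17.3. Of all tested genes, 0.628% had all 8 toxin constructs below all 16 others.

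Against BCP+MSC, the log2 fold change of Dcstamp was -1.84 (SE 0.57) in (dep)BCP+MSC, with an edgeR p of 0.00383 and an adjusted p of 0.0713. It was -1.70 (SE 0.56) in (dep)BCP+MSC+RvE1inj, with an edgeR p of 0.00663 and an adjusted p of 0.183. The exact permutation test of log2 CPM gave p = 0.0286 (two-sided) in both, the smallest possible, with mean differences of -2.53 and -1.91. With DESeq2 the adjusted p were 0.00928 and 0.0363, and with sex as a covariate in edgeR 0.0106 and 0.0323. Over all alternatives run the edgeR or DESeq2 adjusted p ran from 4.28e-05 to 0.411 and from 0.0167 to 0.775. Without the libraries under 20000000 counts the log2 fold change was -1.5 (edgeR p 0.0146) in (dep)BCP+MSC and -1.08 (edgeR p 0.101) in (dep)BCP+MSC+RvE1inj. Without the 3 libraries that stood apart it was -1.01 (SE 0.41, edgeR p 0.0217, adjusted p 0.411) in (dep)BCP+MSC, where 2 constructs remained, and -1.5 (SE 0.36, edgeR p 0.000447, adjusted p 0.0580) in (dep)BCP+MSC+RvE1inj. The toxin groups did not separate from each other, with an exact permutation p of 0.571.

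Marker sums of other cell types moved with Dcstamp. The dendritic cell list (7 of 7 markers tested, none at 0 throughout a group) summed to 676 to 1410 CPM without toxin and 162 to 683 CPM with toxin, most of it Itgax, which had medians of 883 and 290 CPM. Cd209a, the next most abundant of that list, had medians of 17.5 and 4.93 CPM. The fibroblast list (10 of 10 tested, none at 0) summed to 4800 to 21300 CPM without toxin and 2120 to 7830 CPM with toxin. Most of it was the collagen gene Col3a1, at medians of 11800 and 3200 CPM, so the sum does not measure fibroblasts alone. Dcn, the next most abundant of that list, had medians of 1040 and 911 CPM, with overlapping ranges. In (dep)BCP+MSC against BCP+MSC, 7 of the 10 markers passed the unadjusted threshold as lower and 0 as higher (13.2% of all genes). The osteoblast list (13 of 13 tested, 1 at 0 throughout (dep)BCP+MSC) summed to 7340 to 29200 and 3680 to 14200 CPM, led by Col1a1 at medians of 6620 and 2340 CPM and Col1a2 at 6500 and 2060 CPM. Led by these collagens, the sum does not measure osteoblasts alone. It was highest in BCP, without seeded cells (group median 21000 CPM), where the bone matrix gene Ibsp of the same list averaged 0.00602 CPM. The T cell list (9 of 9 tested, none at 0) went the other way, with 21.6 to 60.6 and 31.8 to 120.0 CPM, led by Cd4 at medians of 8.54 and 18.6 CPM. The part of these cells in the Dcstamp result was not tested.

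**Figure D4:**
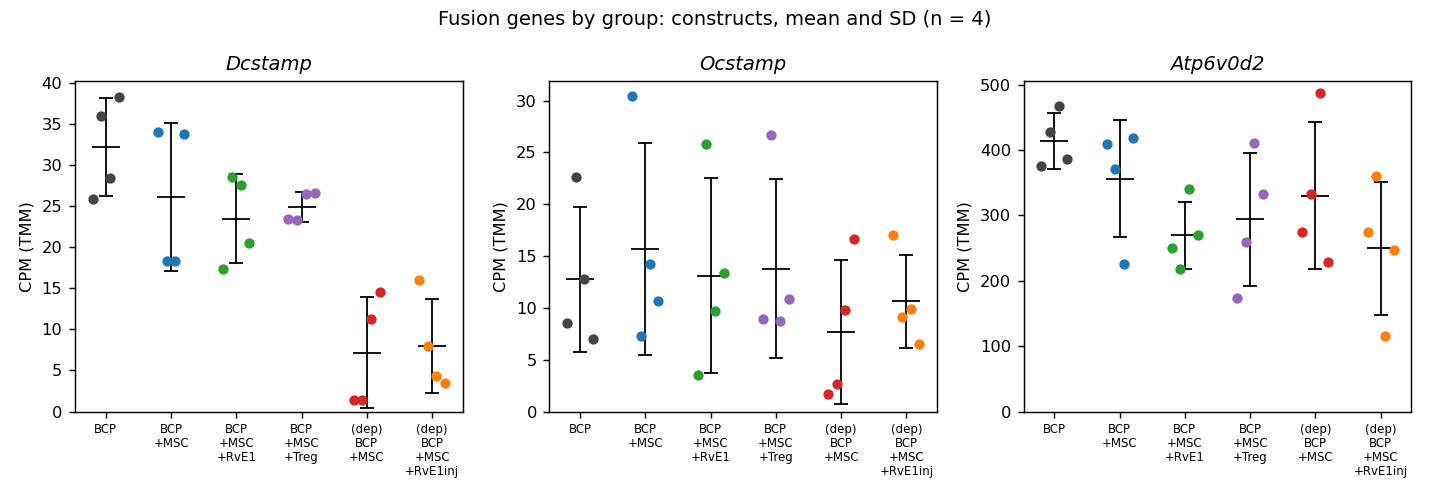
Dcstamp, Ocstamp and Atp6v0d2 in CPM by group, with 1 point per construct, a dash at the mean and bars of 1 SD (n = 4). All 8 toxin constructs lie at or under 16.0 CPM of Dcstamp and all 16 others at or over 17.3 CPM, while Ocstamp overlaps between all groups and Atp6v0d2 is higher in every BCP construct than in those of BCP+MSC+RvE1 and (dep)BCP+MSC+RvE1inj. For Atp6v0d2, the share of all genes that separate these groups was not counted.

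Ocstamp (ENSMUSG00000027670.4), on the minus strand of chromosome 2 at 165393760 to 165400405, encodes the partner protein that is also needed for fusion. BCP constructs had 8.57, 22.6, 12.8 and 6.99 CPM, and BCP+MSC constructs 30.4, 7.33, 14.2 and 10.7 CPM. BCP+MSC+RvE1 constructs had 3.48, 25.8, 9.70 and 13.4 CPM, and BCP+MSC+Treg constructs 8.89, 26.7, 8.70 and 10.9 CPM. Replicates 1 and 2 of (dep)BCP+MSC had 1.69 and 2.65 CPM, the lowest of the 24, while its columns 4 and 5 had 9.80 and 16.6 CPM. Constructs of (dep)BCP+MSC+RvE1inj had 17.0, 9.15, 9.92 and 6.51 CPM. The same pair of constructs thus held the lowest values of Dcstamp, Ocstamp and, at 1.5 and 1.25 CPM, low values of Tnfrsf11b. Both are among the 3 libraries that stood apart over all genes. They also had the lowest sums of the dendritic cell list, most of it Itgax, of the 24, at 162 and 166 CPM. Against BCP+MSC the log2 fold change of Ocstamp was -1.0 (SE 0.66) in (dep)BCP+MSC with an edgeR p of 0.140, which did not pass, and -0.24 (edgeR p 0.733) without the libraries that stood apart.

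Atp6v0d2 (ENSMUSG00000028238.6), on the minus strand of chromosome 4 at 19876841 to 19922605, varied less. BCP constructs had 375.0, 428.0, 468.0 and 386.0 CPM and BCP+MSC+RvE1 constructs 250.0, 218.0, 340.0 and 270.0 CPM, without overlap (share of all genes not counted). The log2 fold change was -0.62 (SE 0.30) with an edgeR p of 0.0514, just outside 0.05, and an exact permutation p of 0.0286, the smallest possible. The means were 355 ± 89.6 CPM in BCP+MSC, 294 ± 102 in BCP+MSC+Treg, 330.0 ± 113 in (dep)BCP+MSC and 249 ± 101 CPM in (dep)BCP+MSC+RvE1inj (SD, n = 4). It had the smallest p of the 10 genes in (dep)BCP+MSC+RvE1inj against (dep)BCP+MSC, where the log2 fold change was -0.40 (SE 0.30) and the edgeR p 0.191 (adjusted p 0.726).

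Acp5 (ENSMUSG00000001348.15), on the minus strand of chromosome 9 at 22126727 to 22135711, was at 282 ± 104 CPM in BCP, 312 ± 98.8 in BCP+MSC, 334 ± 52.3 in BCP+MSC+RvE1, 266 ± 89.5 in BCP+MSC+Treg, 255 ± 76.8 in (dep)BCP+MSC and 235 ± 66.6 CPM in (dep)BCP+MSC+RvE1inj (SD, n = 4). The largest value of the 24 was 2.93 times the smallest. Of its exon bases, 137 (6.75%) are shared with 6530413G14Rik on the opposite strand. No strand option is stated for the counting, so how reads on the shared bases were assigned is not known. It had the smallest p in BCP+MSC+Treg against BCP+MSC+RvE1, where the log2 fold change was -0.33 (SE 0.30) and the edgeR p 0.288 (adjusted p 1.00).

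Ctsk (ENSMUSG00000028111.4), on the plus strand of chromosome 3 at 95499256 to 95509362, was the most abundant gene of the set in every construct. Its level was 1100 ± 469 CPM in BCP, 1060 ± 281 in BCP+MSC, 992 ± 149 in BCP+MSC+RvE1, 974 ± 335 in BCP+MSC+Treg, 1180 ± 286 in (dep)BCP+MSC and 1020 ± 379 CPM in (dep)BCP+MSC+RvE1inj (SD, n = 4). The largest value was 2.57 times the smallest. The log2 fold change of Ctsk in (dep)BCP+MSC against BCP+MSC was 0.16 (SE 0.30) with an edgeR p of 0.599. Ctsk and Acp5 are also expressed by macrophages that have not fused, and the macrophage list was abundant throughout.

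The upstream sequences of Ctsk and Acp5 are shown because these resorption genes had the highest levels per kilobase of the set. They are RefSeq windows of 250 bases before a start site in GRCm38.p6, printed 5′ to 3′. Ctsk is at chr3:95498960-95499209 on the plus strand and has a GC content of 43.2%. Acp5 is at chr9:22135747-22135996 on the minus strand, the outermost of its 3 RefSeq windows, and has a GC content of 48.0%. For both windows, the bases after the start site did not match the start of a GENCODE M21 transcript of the gene. Capitals mark GAGGAAG (a PU.1 core) in Ctsk and GGAAA (the NFAT core) in Acp5, on either strand.
Ctsk: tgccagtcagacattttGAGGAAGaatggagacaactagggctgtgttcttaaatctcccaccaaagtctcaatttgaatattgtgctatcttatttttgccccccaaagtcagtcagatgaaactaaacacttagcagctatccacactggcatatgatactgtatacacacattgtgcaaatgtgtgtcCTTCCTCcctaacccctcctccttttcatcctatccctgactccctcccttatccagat
Acp5: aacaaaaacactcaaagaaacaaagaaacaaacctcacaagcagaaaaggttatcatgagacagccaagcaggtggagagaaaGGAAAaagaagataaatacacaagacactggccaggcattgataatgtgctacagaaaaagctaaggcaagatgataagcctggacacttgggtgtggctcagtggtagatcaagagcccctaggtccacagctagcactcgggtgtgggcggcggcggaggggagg
Ctsk holds 2 matches to GAGGAAG, 233 bases before the start site and, on the other strand, 59 bases before it, and 10.6% of all windows hold at least 1. The printed Acp5 window holds 1 GGAAA, 167 bases before the start site. Of the Acp5 windows not printed, that at chr9:22130599-22130848 did match a transcript start. It holds GGAAA on the other strand, 117 and 37 bases before its start site, and the remaining window holds it at 41 bases. TGANTCA (AP-1), found in 6.75% of windows, and CACGTG, found in 6.02%, occurred in none of the 3 windows printed.

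Calcr (ENSMUSG00000023964.15), on the minus strand of chromosome 6 at 3685680 to 3764714, was detected at the edge of these libraries, with 172 counts over all 24 and 0 to 25 in any one. It had more than 3 counts in 15 of 24 libraries. The count of 0 in BCP replicate 4 allows up to 0.189 CPM. BCP+MSC constructs had 0.136, 0.137, 0.0331 and 0.104 CPM, from 5, 9, 2 and 7 counts. BCP+MSC+Treg constructs had 0.158, 0.162, 0.350 and 0.329 CPM, from 12, 10, 25 and 4 counts, all above the BCP+MSC constructs (share of all genes not counted). The log2 fold change was 1.24 (SE 0.85) with an edgeR p of 0.158 (adjusted p 1.00), and the exact permutation p of log2 CPM was 0.0286, the smallest possible. A difference in Calcr was thus at the limit of the depth.

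Other genes of these pathways were counted in 6 lists. In (dep)BCP+MSC against BCP+MSC, 1 of 15 membrane fusion genes passed the unadjusted threshold, a smaller share than the 13.2% of all tested genes, with a median log2 fold change of -0.65 over the list and -0.04 over all genes. That gene was Adam12, a metalloprotease linked to myoblast and macrophage fusion, at 22.2 ± 8.95 CPM against 87.4 ± 65.6 CPM (log2 fold change -1.97, SE 0.53, edgeR p 0.00122, adjusted p 0.0387). With RvE1 injections, 2 of 15 passed against BCP+MSC (9.45% of all genes), Sh3pxd2a, an adaptor of podosomes, at a log2 fold change of -1.15 (SE 0.35, edgeR adjusted p 0.129), and Adam12 at -1.66 (SE 0.52, edgeR adjusted p 0.154), with a list median of -0.51. In BCP+MSC+RvE1 against BCP, Adam12 alone passed (8.54% of all genes), at -1.18 (SE 0.51, edgeR adjusted p 0.303). The list had 0 of 15 past this threshold in the other 6 comparisons.

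Among 19 genes of acid secretion and resorption, 2 passed in (dep)BCP+MSC against BCP+MSC, both lower and a smaller share than the 13.2% of all genes, with a list median of -0.40 against -0.04 for all genes. Itgb3, the integrin β3 subunit through which osteoclasts hold on to bone, was at 72.7 ± 29.8 CPM against 172 ± 15.0 CPM (log2 fold change -1.24, SE 0.30, edgeR adjusted p 0.0169). Mmp9, a gelatinase of osteoclasts and other myeloid cells, was at 24.7 ± 21.1 CPM against 69.4 ± 22.9 CPM (-1.48, SE 0.49, edgeR adjusted p 0.0891). Only 1 of 19 passed in (dep)BCP+MSC+RvE1inj against BCP+MSC (9.45% of all genes), Car2, the carbonic anhydrase that supplies protons, which was higher at 29.0 ± 5.49 against 11.1 ± 3.65 CPM (log2 fold change 1.38, SE 0.48, edgeR adjusted p 0.195). The other 7 comparisons had 0 of 19.

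Of 30 genes of RANK and CSF1 signalling, 3 passed in (dep)BCP+MSC against BCP+MSC, 2 of them lower and together a smaller share than the 13.2% of all genes, with a list median of -0.12. Il34 and Csf1, the 2 ligands of the CSF1 receptor on which osteoclast precursors depend, were those with the smallest p. Il34 was at 6.55 ± 0.818 CPM against 19.3 ± 3.07 CPM (log2 fold change -1.56, SE 0.23, edgeR adjusted p 0.000572), and Csf1 at 88.1 ± 52.9 against 196 ± 23.8 CPM (-1.15, SE 0.36, edgeR adjusted p 0.0680). With RvE1 injections, 2 of 30 passed against BCP+MSC (9.45% of all genes), both lower, with a list median of -0.26, and these were Il34 (-1.04, SE 0.23, edgeR adjusted p 0.0295) and Csf1 (-1.09, SE 0.36, edgeR adjusted p 0.168). In BCP+MSC+Treg against BCP, Fos, a component of AP-1, passed (5.85% of all genes) at -2.33 (SE 0.72, edgeR adjusted p 0.614), with a BCP mean of 231 ± 279 CPM. The other 6 comparisons had 0 of 30.

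Of 14 genes on the interleukin 4 and interleukin 13 route to giant cells, 3 passed in (dep)BCP+MSC against BCP+MSC (13.2% of all genes), with 1 higher, 2 lower and a list median of -0.43. Chil3, a chitinase-like protein of alternatively activated macrophages, was higher at 7140 ± 3070 CPM against 862 ± 489 CPM (log2 fold change 3.05, SE 1.00, edgeR adjusted p 0.0931). Ccl22, a chemokine made by dendritic cells and macrophages, was lower at 14.3 ± 12.7 against 40 ± 7.13 CPM (-1.47, SE 0.46, edgeR adjusted p 0.0730). With RvE1 injections only Chil3 of the 14 passed against BCP+MSC (9.45% of all genes), at 2.58 (SE 0.98, edgeR adjusted p 0.249). The other 7 comparisons had 0 of 14. Of 14 genes that restrain osteoclast formation, 0 passed in any of the 9 comparisons, with list medians from -0.23 to 0.20.

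Of 15 regulators of RANKL, 13 had enough counts to be tested. In BCP+MSC against BCP, 2 passed (4.32% of all genes), both lower: Il6 at a log2 fold change of -2.15 (SE 0.82, edgeR adjusted p 0.888) and Ptgs2, the inducible cyclooxygenase, at -1.41 (SE 0.66, edgeR adjusted p 0.888). Il6 also passed in BCP+MSC+Treg against BCP (5.85% of all genes), at -2.75 (SE 0.84, edgeR adjusted p 0.614), and its BCP level was 7.02 ± 7.41 CPM. Against BCP+MSC, Wnt16, an osteoblast-derived factor that limits osteoclasts, was lower in BCP+MSC+RvE1 (-1.75, SE 0.84) and BCP+MSC+Treg (-1.86, SE 0.85). Il11 was lower in BCP+MSC+RvE1 (-1.06, SE 0.51). The edgeR adjusted p were 0.924, 1.00 and 0.924, and 2 and 1 genes passed the unadjusted threshold (2.5% and 2.56% of all genes). Levels were low and the groups overlapped. Wnt16 was at 0.584 ± 0.385 and 0.561 ± 0.3 CPM against 1.94 ± 2.69 CPM in the same BCP+MSC libraries. Il11 was at 0.852 ± 0.337 against 1.76 ± 1.27 CPM (SD, n = 4). Without injections, 1 of 13 passed in (dep)BCP+MSC against BCP+MSC (13.2% of all genes), the parathyroid hormone receptor Pth1r, at -1.15 (SE 0.44, edgeR adjusted p 0.138), with a list median of -0.73. With them, 2 passed in (dep)BCP+MSC+RvE1inj against BCP+MSC (9.45% of all genes), Tnf at -1.04 (SE 0.36, edgeR adjusted p 0.196) and Il1b at -1.84 (SE 0.87, edgeR adjusted p 0.360). The remaining 3 comparisons had 0 of 13.

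Without the 3 libraries that stood apart, 3 of the 8 list genes named for (dep)BCP+MSC against BCP+MSC still passed the unadjusted edgeR threshold, and these were Adam12 (-1.58), Il34 (-1.52) and Chil3 (2.57). Itgb3 (-0.82), Mmp9 (-0.75), Csf1 (-0.56), Ccl22 (-0.78) and Pth1r (-1.09) did not. For (dep)BCP+MSC+RvE1inj against BCP+MSC, 6 of 8 passed, and Csf1 (-0.84) and Tnf (-0.94) fell short of the fold limit. By the adjusted threshold Il34 passed in both, with edgeR adjusted p of 0.0280 and 0.0441.

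The genes whose log2 CPM followed each member most closely over the 24 constructs were sought among 14760 genes with at least 1 CPM on average. The constructs share group, depth and tissue makeup, so these correlations are descriptions. For Dcstamp they were Lilra6 (r = 0.97), Pea15a (0.96) and Gsap (0.95), and for Nfatc1 Camk1d (0.97), Smcr8 (0.96) and Bod1l (0.95). For Tnfrsf11b they were Malt1 (0.93), Hif1a (0.90) and Csf1 (0.90), for Tnfrsf11a Fgd6, Chd4 and Washc5 (0.90 each), and for Ocstamp Olfm1 (0.91), Gna15 (0.90) and Mthfd2 (0.89). For Atp6v0d2 they were Gm20056 (0.93), Slc6a8 (0.92) and Tpp1 (0.92). The resorption genes and the ligand had looser neighbours: Acp5 with Scamp3 (0.81), Cmbl (0.80) and Cenpx (0.79), Ctsk with Slc6a8, Ppp2r1a and Sgk1 (0.74 each), and Tnfsf11 with Pacsin1 (0.79), Rasal1 (0.77) and Zfp619 (0.75). Calcr, with few counts, reached 0.62 with Lyrm9, 0.60 with Gm16576 and 0.57 with Homer2. Among the members, Tnfrsf11b and Dcstamp had r = 0.85 over 24 constructs and 0.54 over the 16 without toxin.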

How the data were processed

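RNA was sequenced from 24 whole constructs in 6 groups of 4, taken from the labels. The authors extracted RNA with silica columns, made stranded mRNA libraries, sequenced read pairs, aligned them with HISAT2 2.0.5 and counted exonic pairs per gene with featureCounts 1.5.2 on GENCODE M13 (GRCm38). Picard, DESeq2 1.42.0 and STAR are also named in the submitters' processing notes. The deposited values are raw counts of 51138 genes that were not normalized. No strand option is stated for the counting. Symbols came from GENCODE M21 (50376 identifiers matched), and promoter windows from RefSeq (5 of 10 members matched). Overlaps between genes came from the exon positions in the count table, which is on GENCODE M13.

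Counts were scaled by TMM factors and fitted with edgeR 4.0.16 (R 4.3.3), by the robust quasi-likelihood test in 1 model of 6 groups, for the 30564 genes with at least 10 counts in total. Standard errors are the log2 fold change divided by the square root of F. Log2 CPM used a prior count of 2, and single values were compared by exact permutation over 70 arrangements. Adjusted p-values cover all tested genes. Intervals and floors cover counting error only: total counts ran from 8482701 to 144417743. The fits were also run on simulated counts with the same spread for every gene and no library that stood apart. That setting differs from these data, so it does not show how the fits behave on them. Alternatives changed the scaling, filter, tool (DESeq2 1.42.0), samples and covariates.

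The members and lists were chosen with earlier results of these data known. The 10 members are named throughout, with fold changes where the edgeR p was under 0.05 or the smallest of a comparison. Further fold changes of members, chosen after their values were seen, are given where groups did not overlap or a contrast is described. List genes are the up to 2 per list and comparison with the smallest p among those past the unadjusted threshold. Replicate numbers, from the labels, were checked for pairing by the correlation of deviations from group means: the 4 pairs of BCP+MSC+Treg and BCP+MSC+RvE1 had 0.511, 0.499, 0.529 and 0.159, all above 0.1. Constructs of unlike numbers were not correlated, so these values do not show pairing. In that comparison 0 of 10 members passed with or without the block.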

Additional observations from a re-analysis of the deposited data

Results flagged for a closer look

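Among 66 sets of 4 constructs (10 genes and the RANKL/OPG ratio in 6 groups), 3 held a construct far from the other 3 by Dixon's test, where chance gives about 1 in 20. Tnfsf11 was 1.87 CPM (31 counts) in BCP+MSC+RvE1 replicate 2, a library under 20000000 counts, and 3.30 to 3.57 CPM in the other constructs of the group. Tnfrsf11b was 2.60 CPM (191 counts) in BCP+MSC+RvE1 replicate 1, and 5.66 to 6.26 CPM in the others. Ctsk was 1470 CPM in BCP+MSC+Treg replicate 3, and 756 to 839 CPM in the others.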

How the results depend on the processing

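The number of the 10 genes past the unadjusted threshold in BCP+MSC against BCP was 0, and 1 (Tnfsf11) with RLE size factors, no filter, DESeq2, the sex covariate, the muscle covariate and without the 3 libraries that stood apart (chosen after seeing the correlations), and 0 to 1 when 1 construct was left out. In BCP+MSC+RvE1 against BCP it was 1 (Tnfsf11), 1 with the sex covariate, where Tnfrsf11b passed in place of Tnfsf11, and 0 with the muscle covariate or without libraries under 20000000 counts (chosen after seeing the depths), and 0 to 1 when 1 construct was left out. In BCP+MSC+Treg against BCP it was 1, and 0 under the same 2 settings, and 0 to 2 when 1 was left out. For (dep)BCP+MSC against BCP+MSC it was 1, and 3 (Dcstamp, Ocstamp and Tnfrsf11b) with the sex covariate (4370 of all 30564 genes), and 1 to 3 when 1 was left out, the 3 without column 5 (4355 of all 30393 genes). For (dep)BCP+MSC+RvE1inj against BCP+MSC it was 1, and 2 with the sex covariate (3649 of all 30564 genes), 0 without libraries under 20000000 counts, and 1 to 2 when 1 was left out. By the adjusted threshold, 1 gene (Dcstamp) passed in (dep)BCP+MSC with filterByExpr, DESeq2 and the sex covariate, and 0 to 1 when 1 was left out, and 1 in (dep)BCP+MSC+RvE1inj with DESeq2 and the sex covariate. Of all genes, 1153 of 21414, 1845 of 30564 and 1397 of 30564 passed in (dep)BCP+MSC under these settings. In (dep)BCP+MSC+RvE1inj, 852 and 459 of 30564 did. The cause of these changes was not tested.

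The replicate block left out columns 4 and 5, so (dep)BCP+MSC held only replicates 1 and 2, both among the 3 libraries that stood apart. With the block, 3 genes passed the unadjusted and 3 the adjusted threshold in (dep)BCP+MSC against BCP+MSC, 3 and 1 in (dep)BCP+MSC+RvE1inj against (dep)BCP+MSC, and 1 the adjusted threshold in (dep)BCP+MSC+RvE1inj against BCP+MSC, and the same 22 samples without the block (a setting added after seeing the data) gave the same counts. Many of all 30092 genes also passed with the block. In (dep)BCP+MSC against BCP+MSC, 4921 passed the unadjusted and 2149 the adjusted threshold. The counts were 2787 and 332 in (dep)BCP+MSC+RvE1inj against (dep)BCP+MSC. In (dep)BCP+MSC+RvE1inj against BCP+MSC, 224 passed the adjusted threshold. For Dcstamp in (dep)BCP+MSC the log2 fold change was -4.24 with the block and -4.18 on the 22 samples without it, against -1.84 on all 24 and -1.01 without the libraries that stood apart. In the other comparisons than BCP+MSC+Treg against BCP+MSC+RvE1, at least 1 pair of numbers had a correlation under 0.1. Outside the block setting, no test took the numbers as pairs.

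Without libraries under 20000000 counts, the log2 fold change of Tnfsf11 against BCP changed sign to 0.19 in BCP+MSC and 0.04 in BCP+MSC+RvE1. The RANKL/OPG ratio was on the same side of the test in all alternatives. Leaving out 1 construct gave differences of -0.642 to 0.464 for BCP+MSC, -0.637 to 0.468 for BCP+MSC+RvE1 and -1.06 to 0.0433 for BCP+MSC+Treg against BCP, -0.367 to 0.298 for BCP+MSC+RvE1 and 0.221 to 1.31 for (dep)BCP+MSC against BCP+MSC and -0.825 to 0.261 for (dep)BCP+MSC+RvE1inj against (dep)BCP+MSC. Depth limits Calcr, which had at most 25 counts in a library.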
